A study of Rattus norvegicus with 9 samples.

Results

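The Trim genes encode tripartite motif proteins, most of them ubiquitin ligases, and 40 of them were expressed in the rat frontal cortex at the level needed to be followed here. The members were the genes typed as mRNA whose symbol begins with Trim and a number and whose reads in the 9 rats summed to at least 90. They were 40 of the 37209 genes of the deposited table, and all 40 were among the 16837 genes that passed the filter on low counts and were tested. The table held 56 Trim symbols, of which 54 were typed as mRNA and 2 as ncRNA, so that 14 mRNA genes lay below the minimum, and Trim31 and Trim42 had no read in any rat. The members just above the minimum were Trim47l with 102 reads and Trim14 with 157, and the genes just below it were Trim72 with 73 and Trim63 with 57.

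Total RNA depleted of rRNA was sequenced from the frontal cortex of 9 male Wistar rats aged 14 weeks, 3 in each of 3 groups. Control rats (A1, A2 and A6) stayed undisturbed with their mothers until weaning. Rats of the maternal separation group (MS; B3, B4 and B6) lost their mothers for 4 h of each day over PND 1 to 21, where PND is the postnatal day, and rats of the MS+EA group (C3, C10 and C16) had the same separation and then electroacupuncture at GV20 and GV29 under isoflurane on alternate days over PND 61 to 81. By the study's methods the Control and MS rats received the anaesthesia alone, so that all 3 groups shared it, and the group with sham needles in the behavioural tests was not among those sequenced. Which rats shared a litter is not stated in the sources used here, and rats of a common litter would not be independent. The p-values below set the differences between groups against the spread between rats within groups, and take the 9 rats as independent.

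Tripartite motif proteins carry a RING domain, B-boxes and a coiled coil in this order, followed by a C-terminal part that differs between classes and chooses the partner. The RING takes ubiquitin from an E2 enzyme and passes it to a target protein, which is then degraded, moved or switched in activity. In brain the family is best known for axon branching (Trim9, Trim67), microtubule bundles of the axon start (Trim46), synaptic scaffold turnover (Trim3) and gene silencing (Trim28), and elsewhere for antiviral defence (Trim5, Trim21, Trim25). Of the 40 members, 4 had the COS-FN3-SPRY structure of the cytoskeletal class (Trim9, Trim36, Trim46 and Trim67), 3 the NHL repeats (Trim2, Trim3 and Trim32), 4 the PHD finger and bromodomain (Trim24, Trim28, Trim33 and Trim66), 7 were listed as interferon and antiviral genes, 2 as genes of striated muscle and 20 in none of these classes.

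Total counts lay between 12479905 and 19007907 per rat, and the 3 MS+EA rats had the lowest totals, so that depth and this group cannot be told apart. Markers of brain cell types were detected, and these do not tell frontal cortex from other brain regions. Neuron markers (5 of 5 detected) summed to 5596 to 5687 CPM (counts scaled to library size) in Control, 5736 to 6259 in MS and 4804 to 6044 in MS+EA rats. Over all rats, astrocyte markers (4 of 4) summed to 1637 to 2353 CPM, oligodendrocyte markers (4 of 4) to 1625 to 3809, and microglia markers (4 of 4) to 161 to 216. Skeletal muscle markers summed to 5.66 to 9.54 CPM, of which Acta1 gave 4.72 to 7.34, and Ckm and Tnnt3 had at most 3 counts in every rat. In bulk tissue, fewer cells of a type and less RNA per cell cannot be told apart.

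The sequences ahead of the start of transcription are printed for Trim59, Trim36 and Trim8, which passed the test between MS+EA and Control and have a promoter entry, and for both members that carry an interferon-type element before the start. They come from RefSeq (GRCr8), whereas the reads were mapped to Rnor_6.0. An entry was found for 32 of the 40 members, and 16 of these 32 begin at the outer edge of the gene in the same release; those of Trim59, Trim21 and Trim26 begin inside it. Each line holds the 250 bases before the start, 5′ to 3′ on the strand of the gene. Capitals mark the GC box GGGCGG, the CCAAT box, and the ISRE-like pattern (GAAA, any 2 bases, GAAA), the core of elements through which interferon acts, each searched on both strands, so that CCGCCC and ATTGG are reverse forms, as is TTTC repeated. Overlapping copies run together.
Trim59, chr2:155590007-155590256, minus strand: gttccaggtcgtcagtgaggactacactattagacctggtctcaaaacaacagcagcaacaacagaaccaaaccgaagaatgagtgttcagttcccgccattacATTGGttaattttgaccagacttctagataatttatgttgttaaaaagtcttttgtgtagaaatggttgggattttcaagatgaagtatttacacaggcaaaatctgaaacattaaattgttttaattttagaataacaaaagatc
Trim36, chr18:41099498-41099747, minus strand: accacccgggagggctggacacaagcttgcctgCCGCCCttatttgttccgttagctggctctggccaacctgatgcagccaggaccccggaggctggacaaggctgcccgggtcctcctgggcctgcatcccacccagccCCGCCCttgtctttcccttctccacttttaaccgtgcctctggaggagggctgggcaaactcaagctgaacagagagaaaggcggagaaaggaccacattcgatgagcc
Trim8, chr1:255310789-255311038, plus strand: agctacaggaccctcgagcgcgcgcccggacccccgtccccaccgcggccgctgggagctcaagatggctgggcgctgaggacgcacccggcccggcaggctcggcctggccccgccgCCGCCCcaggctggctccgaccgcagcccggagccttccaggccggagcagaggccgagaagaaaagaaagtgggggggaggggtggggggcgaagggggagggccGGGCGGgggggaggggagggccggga
Trim21, chr1:166399372-166399621, minus strand: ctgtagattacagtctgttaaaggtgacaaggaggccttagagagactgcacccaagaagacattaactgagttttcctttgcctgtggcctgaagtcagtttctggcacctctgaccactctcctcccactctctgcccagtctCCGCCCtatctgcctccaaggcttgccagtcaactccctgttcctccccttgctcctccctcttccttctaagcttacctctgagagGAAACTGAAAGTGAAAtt
Trim26, chr20:1736312-1736561, minus strand: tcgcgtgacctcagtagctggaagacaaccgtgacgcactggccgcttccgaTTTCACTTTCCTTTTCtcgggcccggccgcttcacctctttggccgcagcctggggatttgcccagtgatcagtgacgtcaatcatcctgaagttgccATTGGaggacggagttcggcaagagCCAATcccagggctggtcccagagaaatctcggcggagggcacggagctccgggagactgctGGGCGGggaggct
The stretch of Trim59 held a single CCAAT box and no GC box, with 34.7% G and C and 3 CpG dinucleotides in its window of 250 bases before and 50 after the start. Trim8 had 2 GC boxes, 71.7% G and C and 27 CpG, and Trim36 had 2 GC boxes, 60.0% and 11. The interferon-type pattern was present in overlapping copies in Trim21 and in Trim26, and in Trim34 it lay after the start.

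Over the 32 member windows the GC box was found in 20 (62.5%), against 33.1% of all 33469 promoter windows. The CCAAT box was found in 13 (40.6%, against 37.5%) and the interferon-type pattern in 3 (9.38%, against 3.92%). The letters TATAAA, searched on both strands, were found in Trim41 alone (3.12%, against 14.2%). There they lay on the reverse strand with the first base at -238 from the start, so that the match does not show a working TATA box. The E-box CACGTG was found only in Trim25 (3.12%, against 6.42%), and the NRF1-like pattern in Trim32 (3.12%, against 0.852%). The median window of the members held 60.3% G and C and 18 CpG, against 51.7% and 7 over all windows. The members were chosen by their reads and the other windows were not. A comparison with the windows of expressed genes alone was not run. Trim35, the remaining gene that passed the test, has no entry in the table of promoters.

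Summed over the family, the reads did not separate the groups. The sums were 2746 ± 31.6 CPM (SD, n = 3) in Control, 2755 ± 60.2 in MS and 2670 ± 116 in MS+EA rats, and the 3 groups overlapped. Between MS and Control, 20 members were higher and 20 lower. Their median log2 fold change was 0.0045 against -0.0014 over all tested genes, and 27 members differed by less than 0.2 on the log2 scale. Between MS+EA and MS, 17 were higher and 23 lower, with a median of -0.04 against 0.0006, and 32 differed by less than 0.2. Between MS+EA and Control, 19 were higher and 21 lower, with a median of -0.02 against 0.0055, and 25 differed by less than 0.2. The median size of the difference, whatever its sign, was 0.14, 0.12 and 0.13 in these comparisons, against 0.13, 0.14 and 0.18 over all tested genes.

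**Figure D1:**
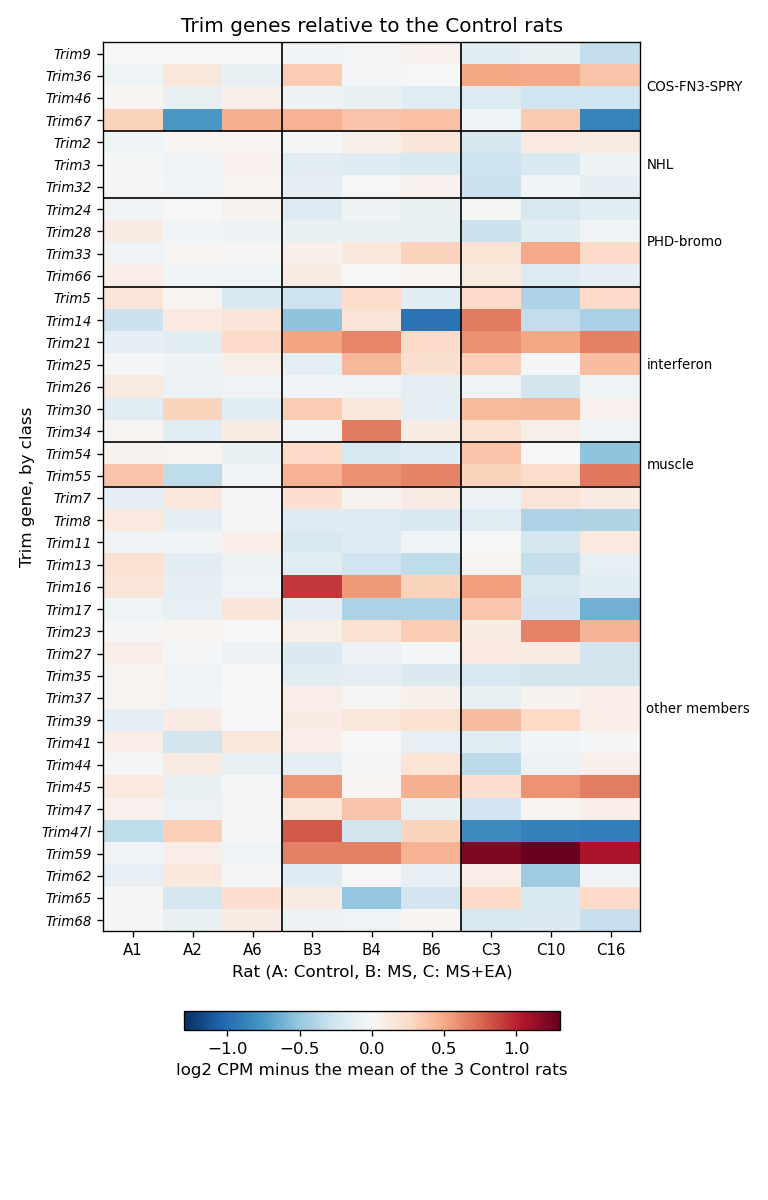
The 40 Trim genes (rows, by class) in each of the 9 rats (columns), coloured by log2 CPM minus the mean of the 3 Control rats. Trim59 is the row that deepens from Control to MS to MS+EA, Trim47l is blue in the 3 MS+EA rats, and most rows stay near white.

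The most reads came from Trim2, with a mean of 553 CPM over the 9 rats, Trim37 with 348, Trim9 with 340, Trim35 with 232, Trim33 with 190, Trim8 with 174, Trim28 with 132 and Trim32 with 126. The fewest came from Trim47l with 0.70, Trim14 with 1.11, Trim17 with 1.67 and Trim55 with 1.96. These values are reads scaled to library size and are not divided by transcript length, so that they do not rank the genes by number of transcripts. Trim37, a ligase of peroxisomes and centrosomes, was among the steadiest members, with 320 to 364 CPM over all 9 rats. Trim35 and Trim46 were also among the 3 members that varied least within groups. Trim67, Trim14 and Trim47l varied most, with 1.19 to 2.98, 0.60 to 1.87 and 0.40 to 1.28 CPM.

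The comparison of MS with Control rats asks what early separation leaves in the adult cortex. No Trim gene passed an adjusted p of 0.05 in edgeR's quasi-likelihood test, with or without the 1.5-fold limit, where 4 genes of all tested passed either way (0.0238%). DESeq2 also passed no member. At an unadjusted p under 0.05 there were 6 members (15.0%), against 10.6% of all tested genes. Trim16, Trim21 and Trim59 were higher (7.06% of all tested genes were higher at this level) and Trim3, Trim8 and Trim35 lower (3.55%). In 14 members (35.0%) the 3 MS rats lay wholly above or below the 3 Control rats, against 17.6% of all tested genes.

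Trim16, a member without a RING that takes part in the clearance of damaged lysosomes, had the largest difference. Control rats had 3.75, 3.05 and 3.23 CPM, MS rats 6.30, 4.88 and 4.09, and MS+EA rats 4.86, 2.88 and 3.02. Every MS rat lay above every Control rat, and the MS+EA rats overlapped both groups. The fold change of MS over Control was 1.52 (log2 0.60, SE 0.25, adjusted p = 0.409). Trim3, which drives turnover of the postsynaptic scaffold, had 108, 106 and 113 CPM in Control and 98.5, 96.9 and 95.0 in MS rats, without overlap and with a log2 fold change of -0.17 (SE 0.07, adjusted p = 0.388). Among the other members without overlap, Trim55 was at 2.10 to 2.41 CPM in MS against 1.22 to 1.98 in Control rats, and Trim11, Trim13, Trim17, Trim24 and Trim28 had log2 fold changes of -0.31 to -0.09 in MS.

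Endothelial markers moved alongside this comparison. All 4 had positive log2 fold changes in MS, and their sum was 91.2 to 105 CPM in Control, 113 to 126 in MS and 97.0 to 117 in MS+EA rats, with no defining marker at 0. Their part in the differences of the Trim genes was not tested.

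The comparison of MS+EA with MS rats asks what the treatment changes after separation. No member passed an adjusted p of 0.05, with or without the fold limit, where 3 genes of all tested did (0.0178%). DESeq2 passed no member either, but it gave no adjusted p for Trim59 (unadjusted p = 0.000378 in DESeq2) or Trim47l. Neither gene could therefore pass in DESeq2. At an unadjusted p under 0.05 there were 4 members (10%), fewer by share than the 12.4% of all tested genes. Trim36 and Trim59 were higher (6.01% of all tested genes) and Trim9 and Trim47l lower (6.42%). In 8 members (20%) the rats of the groups did not overlap, against 17.9% of all tested genes, namely Trim9, Trim35, Trim36, Trim46, Trim47l, Trim59, Trim67 and Trim68.

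Trim47l, which the current RefSeq release lists as a synonym of Trim80, had the largest difference by fold and the fewest reads. Reads numbered 11, 15 and 12 in Control, 22, 10 and 15 in MS and 6, 6 and 5 in MS+EA rats. The MS+EA rats were lower than all the others, in CPM too, where they had 0.42, 0.40 and 0.40 against 0.59 to 1.28. The log2 fold change against MS was -1.20 (SE 0.44, adjusted p = 0.319) and that against Control -0.87 (SE 0.45, adjusted p = 0.281), so that the difference was not resolved at this depth. Markers of cortical layers 6 and 6b (6 of 6 detected, none at 0) summed to 116 to 122 CPM in MS and 135 to 155 in MS+EA rats, against 108 to 143 in Control rats. All 6 had positive log2 fold changes in MS+EA over MS, and 5 of the 6 had negative ones in MS against Control. Nxph4 had 2, 12 and 1 reads in MS rats B3, B4 and B6, so that it lay under the floor of 3 counts in B3 and B6. Of the 6 markers, only Cplx3 and Syt6 had an unadjusted p under 0.05 in edgeR in MS+EA over MS, where 12.4% of all tested genes passed. The study names Cplx3 as lowered in MS and reversed by electroacupuncture, the direction found here. It names Syt6 as raised in MS and reversed by electroacupuncture. Here Syt6 went the other way, with a log2 fold change of -0.69 in MS against Control and 1.04 in MS+EA against MS. The list of layer markers was chosen with earlier results known. All 4 oligodendrocyte markers also had positive log2 fold changes in MS+EA over MS, and all 4 had negative ones in MS against Control. Their sums were 1896 to 2931 CPM in Control, 1625 to 2650 in MS and 1843 to 3809 in MS+EA rats. All 5 neuron markers had negative log2 fold changes in MS+EA over MS. The part of these markers in the values of the Trim genes was not tested.

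The comparison of MS+EA with Control rats sets both treatments together against neither. A single member, Trim59, passed both an adjusted p of 0.05 and the 1.5-fold limit (2.5% of members), where 230 genes of all tested did (1.37%), 210 higher and 20 lower. At an adjusted p under 0.05 without the fold limit there were 4 members, Trim8, Trim35, Trim36 and Trim59 (10%), against 5.4% of all tested genes. At an unadjusted p under 0.05 there were 11 (27.5%), against 22.5%. Of these, Trim21, Trim23, Trim33, Trim36, Trim39 and Trim59 were higher (11.9% of all tested genes) and Trim3, Trim8, Trim9, Trim35 and Trim46 lower (10.6%). The groups did not overlap in 13 members (32.5%), against 25.9% of all tested genes. The MS+EA and MS groups, and the MS and Control groups, share rats with this comparison, so that the 3 sets of values are not independent.

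**Figure D2:**
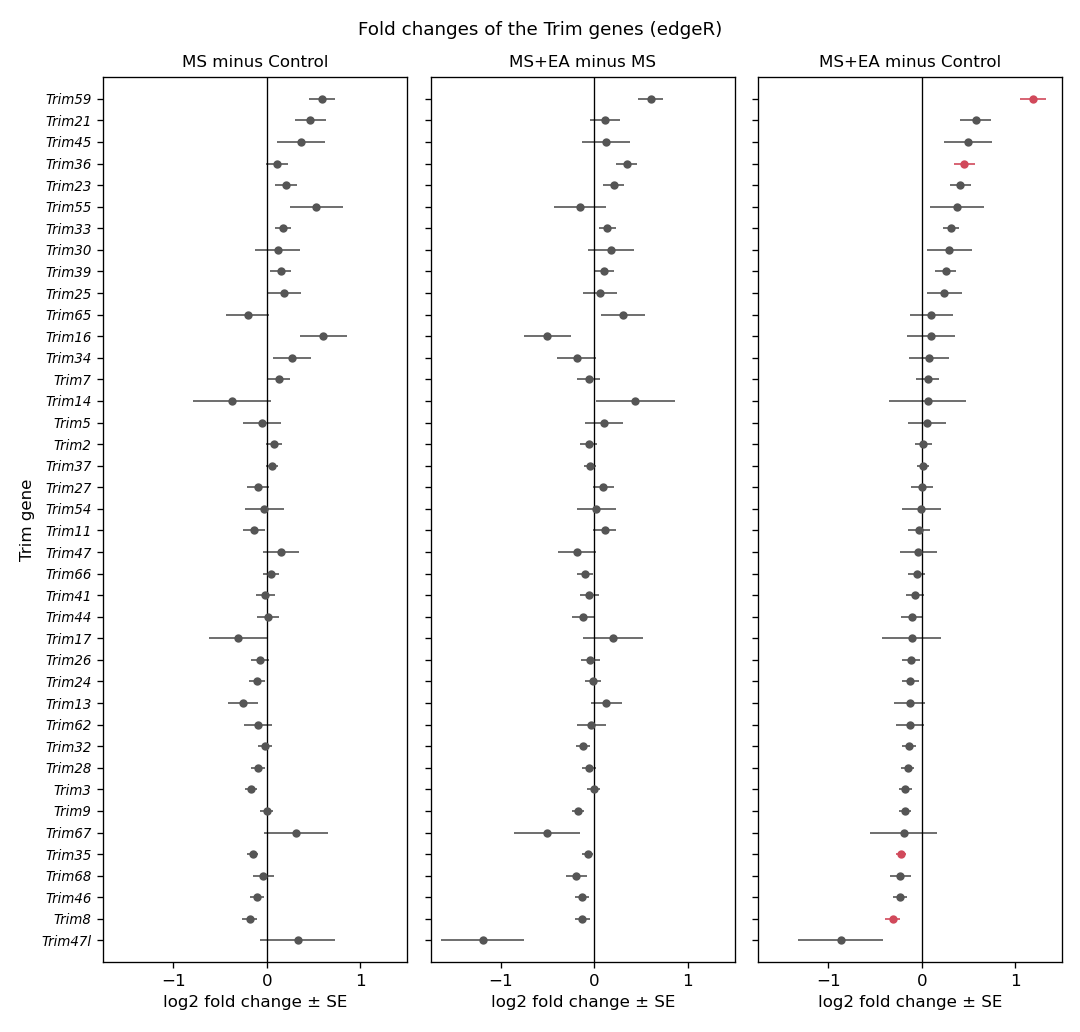
The log2 fold change of each of the 40 Trim genes ± SE (edgeR, 3 rats per group) in the 3 comparisons, with genes in the order of MS+EA minus Control. Red points passed an adjusted p of 0.05, which 4 genes did in MS+EA minus Control and none in the others; Trim59 stands alone at 1.19.

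Trim59, anchored in the membrane of the endoplasmic reticulum and studied mostly in tumour growth and innate immune signalling, rose from Control to MS+EA. Its reads numbered 108, 104 and 93 in Control, 161, 150 and 136 in MS and 199, 219 and 156 in MS+EA rats. Scaled to library size these were 5.78, 6.34 and 5.78 CPM, then 9.39, 9.38 and 8.18, then 13.8, 14.7 and 12.4. Every MS rat lay above every Control rat, and every MS+EA rat above every MS rat. The means were 5.97 ± 0.32, 8.98 ± 0.70 and 13.6 ± 1.15 CPM (SD, n = 3). MS+EA exceeded Control by 2.28-fold (log2 1.19, SE 0.14, adjusted p = 0.00297 in edgeR), which placed Trim59 at rank 5 by p among the 16837 genes tested. Each step had a similar size, a log2 fold change of 0.59 from Control to MS (SE 0.14, adjusted p = 0.146) and 0.60 from MS to MS+EA (SE 0.13, adjusted p = 0.184), and neither passed the test. With any rat left out, Trim59 stayed past both limits between MS+EA and Control, with a log2 fold change of 1.13 to 1.25 and an adjusted p of 0.00296 to 0.0235.

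An order from Control through MS to MS+EA without any overlap was found in Trim59, rising, where 0.938% of all tested genes rose this way, and in Trim35, falling, where 0.992% did. No other member had MS rats apart from both other groups.

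Trim59 lies between Smc4 and Kpna4 in the gene order of RefSeq, with Ift80 beyond Smc4. Smc4, a condensin subunit that compacts chromosomes, had 23, 22 and 14 reads in Control, 21, 30 and 37 in MS and 40, 36 and 49 in MS+EA rats; it and the other neighbours were looked up because of Trim59. In CPM it was at 1.15 ± 0.25, 1.78 ± 0.51 and 3.03 ± 0.77, and every MS+EA rat lay above all others. Smc4 rose in MS+EA over Control by 2.61-fold (log2 1.39, SE 0.33, adjusted p = 0.0337). Kpna4, an importin alpha, was at 122 ± 3.06, 139 ± 10.9 and 140 ± 13.1 CPM, with a log2 fold change of 0.19 (SE 0.08, adjusted p = 0.178). Ift80, a part of the transport machinery of cilia, had a log2 fold change of 0.20 (SE 0.12, adjusted p = 0.323). Whether any reads of Trim59 and Smc4 come from a shared transcript was not tested.

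**Figure D3:**
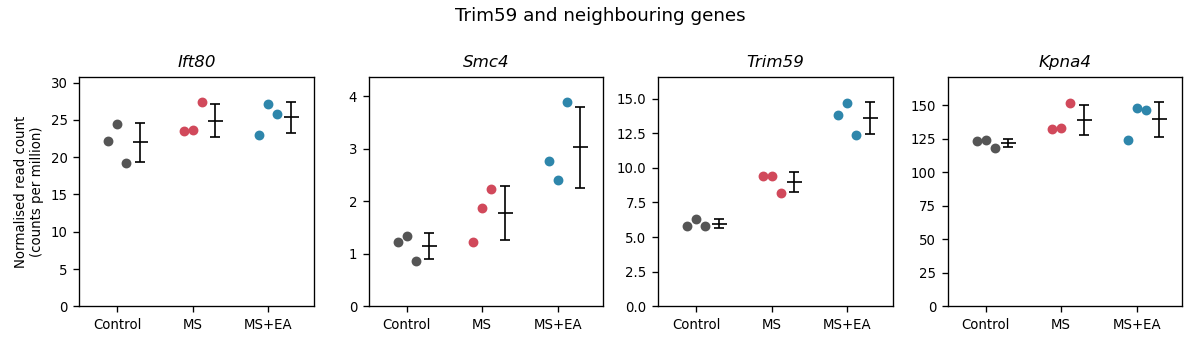
Normalised read count (CPM) of Trim59 and of Ift80, Smc4 and Kpna4, its neighbours in the genome, in each rat (points), with the group mean ± SD beside them (n = 3). Trim59 and Smc4 are highest in the 3 MS+EA rats, while Ift80 and Kpna4 overlap between MS and MS+EA.

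The cytoskeletal class divided. Trim36, a microtubule-bound ligase, had 23.4, 27.0 and 22.8 CPM in Control, 30.6, 23.9 and 24.5 in MS and 34.5, 34.3 and 31.4 in MS+EA rats. The MS+EA rats lay above all 6 others, and Control and MS rats overlapped. Trim36 rose in MS+EA over Control by 1.37-fold (log2 0.45, SE 0.11, adjusted p = 0.0396), and its log2 fold change over MS was 0.34 (SE 0.11, adjusted p = 0.275). The rise over Control passed the test without A2, B3 or B4 and not without any of the other 6 rats, with an adjusted p of 0.028 to 0.155.

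Trim9, Trim46 and Trim67, the remaining Trim symbols of this class, had negative log2 fold changes in MS+EA against both other groups. Mid1 and Mid2, of the same class under other names, had positive ones against both and are given below. Trim9, which acts with the netrin receptor Dcc in axon branching, had 353, 355 and 354 CPM in Control, 345, 347 and 368 in MS and 321, 331 and 286 in MS+EA rats. The MS+EA rats lay below all others, while Control and MS means were almost equal at 354 ± 1.16 and 353 ± 12.4. Its log2 fold change was -0.18 against MS (SE 0.07, adjusted p = 0.322) and -0.18 against Control (SE 0.07, adjusted p = 0.136). Trim46, which bundles microtubules at the axon initial segment, had 58.8, 54.0 and 60.2 CPM, then 55.2, 54.3 and 51.8, then 51.1, 48.2 and 48.0. Here too the MS+EA rats were lowest, with a log2 fold change of -0.23 against Control (SE 0.07, adjusted p = 0.0862). Krtcap2, which overlaps Trim46 in the RefSeq annotation, had a log2 fold change of -0.34 (SE 0.12, adjusted p = 0.0997), and the strand setting of the counts is not given in the sources used here, so that reads of overlapping genes cannot be told apart. Trim67, close kin of Trim9, had 2.68, 1.28 and 2.98 CPM in Control, 2.97, 2.81 and 2.83 in MS and 2.08, 2.75 and 1.19 in MS+EA rats, and its range within Control was wider than the distance between any group means.

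Neuronal markers give the setting of these values. Slc17a7, the vesicular glutamate transporter of excitatory cortical neurons, fell in MS+EA against Control by 0.30 on the log2 scale (SE 0.06, adjusted p = 0.0207), and it was the sole neuron marker of 5 to pass. The sum of the 5 overlapped between Control and MS+EA rats, and its part in the values of Trim9 and Trim46 was not tested.

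**Figure D4:**
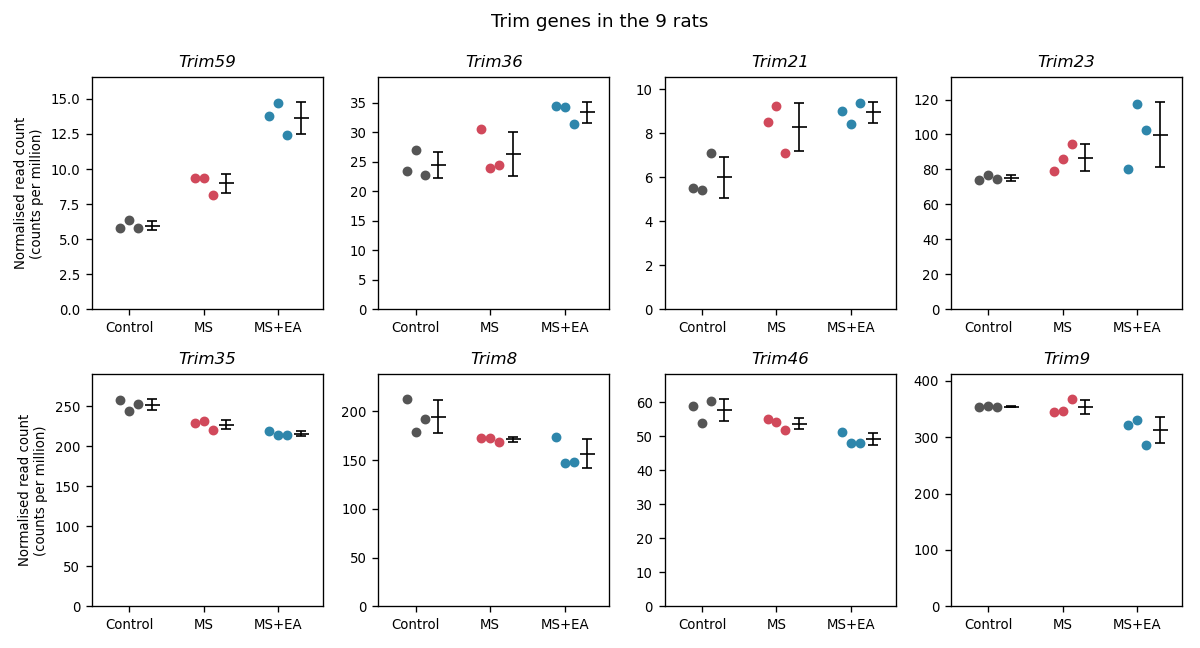
Normalised read count (CPM) of 8 Trim genes in each rat (points), with the group mean ± SD beside them (n = 3). Trim59 separates all 3 groups upward and Trim35 downward, Trim36 is highest and Trim9 and Trim46 lowest in the MS+EA rats, and Trim23 spreads widest in MS+EA.

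Trim35 and Trim8 were the members that fell. Trim35, linked to apoptosis and to control of interferon factors, had 259, 245 and 253 CPM in Control, 229, 232 and 221 in MS and 220, 214 and 214 in MS+EA rats. Each group lay wholly below the one before it, with means of 252 ± 7.00, 227 ± 5.80 and 216 ± 3.07. Trim35 fell in MS+EA against Control by 0.22 on the log2 scale (SE 0.06, adjusted p = 0.0421), a drop of 1.17-fold. The log2 fold change in MS against Control was -0.15 (SE 0.06, adjusted p = 0.362). With any of the 9 rats left out, the fall kept its direction, at -0.24 to -0.21, and missed the limit, with an adjusted p of 0.0546 to 0.16.

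Trim8, which tunes STAT and NF-kB signalling, had 213, 179 and 192 CPM in Control, 173, 172 and 169 in MS and 174, 147 and 148 in MS+EA rats. Both separated groups lay below all Control rats and overlapped each other. Trim8 fell in MS+EA against Control by 0.31 on the log2 scale (SE 0.08, adjusted p = 0.0444). The fall passed the test without A2 or without C3 and not without any of the other 7 rats, with an adjusted p of 0.0194 to 0.184. Both falls also missed the limit with total counts in place of TMM scaling (adjusted p = 0.0682 for Trim8 and 0.0638 for Trim35) and in a fit of the 6 rats compared (0.0752 and 0.0813), and that of Trim35 missed it with a filter of at least 1 count (0.0664).

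Trim23, Trim33 and Trim21 came next, each higher in MS+EA and short of the limit. Trim23, which joins a RING to an ARF-type GTPase domain, had 73.8, 76.8 and 74.7 CPM in Control, 79.1, 86.2 and 94.7 in MS and 80.1, 117 and 102 in MS+EA rats. Control rats lay below all others, and rat C10 was highest. The log2 fold change of MS+EA over Control was 0.41 (SE 0.12, adjusted p = 0.0569). Trim33, a nuclear co-repressor that acts on Smad4, had 164, 174 and 171 CPM, then 177, 187 and 209, then 192, 238 and 201. Again the Control rats were lowest, with a log2 fold change of 0.31 in MS+EA (SE 0.09, adjusted p = 0.0559). Both genes had their highest value in C10. Trim23, Trim33 and Trim21 passed the limit in DESeq2.

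Of the other PHD-bromodomain members, Trim24, Trim28 and Trim66 had log2 fold changes of -0.12, -0.15 and -0.06 in MS+EA against Control, and none of the 4 passed an adjusted p in any comparison. Trim28, the co-repressor of zinc finger proteins, had 133 to 149 CPM in Control, 130 to 131 in MS and 115 to 134 in MS+EA rats. The NHL-repeat members were close between groups. Trim2, a ligase of the light neurofilament, had 518, 548 and 556 CPM in Control, 536, 570 and 604 in MS and 463, 591 and 586 in MS+EA rats, with all groups overlapping. Trim32, mutated in limb-girdle muscular dystrophy, had log2 fold changes of -0.02 and -0.14 in MS and MS+EA against Control. Trim3 was at 90.2 to 104 CPM in MS+EA rats, below all Control rats, with a log2 fold change of -0.18 (SE 0.07, adjusted p = 0.144).

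Among the 7 interferon and antiviral members, Trim21 was the one that differed at an unadjusted p under 0.05. Trim21, a receptor for antibody inside the cell, had 5.51, 5.43 and 7.09 CPM in Control, 8.51, 9.26 and 7.09 in MS and 9.02, 8.44 and 9.38 in MS+EA rats. Control rat A6 and MS rat B6 were nearly equal, and the MS+EA rats lay above all Control rats. The log2 fold change was 0.46 in MS (SE 0.16, adjusted p = 0.311) and 0.57 in MS+EA (SE 0.16, adjusted p = 0.0614) against Control. Trim26, which carries the same promoter pattern as Trim21, had 23.5 to 26.9, 22.7 to 24.1 and 21.0 to 23.9 CPM in the 3 groups and a log2 fold change of -0.11 in MS+EA. Trim34, with the pattern after its start, had 0.27 in MS and 0.08 in MS+EA against Control. Trim5, Trim14, Trim25 and Trim30 had log2 fold changes of 0.05, 0.06, 0.24 and 0.30 in MS+EA against Control. Trim5 and Trim34 are close relatives and neighbours in the genome, and how the counting treated reads shared between near copies is not given in the sources used here.

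Of the striated muscle members, Trim54 had 6.28 to 11.7 CPM over all rats and Trim55 had 1.22 to 2.46. Of the 5 muscle markers, Ckm and Tnnt3 stayed at or under 3 counts per rat, while Acta1 summed to 871 reads, Myh1 to 95 and Myh2 to 102 over the 9 rats. Neither passed the test in any comparison. Among the members of no class, Trim39 had log2 fold changes of 0.15 and 0.25 in MS and MS+EA against Control (adjusted p = 0.671 and 0.203). Rpp21, which overlaps Trim39 in RefSeq, had -0.58 in MS+EA (adjusted p = 0.185). Trim45 had 1.83 to 2.14 CPM in Control and 2.29 to 3.10 in MS+EA rats, and Trim68 had 12.9 to 14.6 and 11.1 to 11.99, both without overlap and with an adjusted p of 0.281 and 0.255. The remaining members of no class, Trim7, Trim11, Trim13, Trim17, Trim27, Trim41, Trim44, Trim47, Trim62 and Trim65, had log2 fold changes between -0.13 and 0.10 in MS+EA against Control.

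Members of the family that carry other names were counted beside the Trim genes, and 4 of 5 (Mid1, Mid2, Pml, Cmya5) were tested. Mid1 and Mid2, the microtubule-bound ligases of the same class as Trim9, were higher in MS+EA than in Control at an unadjusted p under 0.05. These were 2 of 4, where 22.5% of all tested genes passed this level in either direction. Mid1 was also higher in MS than in Control at this level, 1 of 4 where 10.6% of all tested genes passed. Mid1 had 16.9, 15.2 and 19.03 CPM in Control, 19.8, 23.0 and 20.02 in MS and 21.6, 21.8 and 26.1 in MS+EA rats, with a log2 fold change of 0.44 in MS+EA (SE 0.12, adjusted p = 0.0551). Mid2 had 43.8, 46.1 and 41.3 CPM, then 49.0, 49.9 and 46.1, then 48.8, 53.7 and 62.1, with 0.33 (SE 0.09, adjusted p = 0.062). In both genes every MS+EA rat lay above every Control rat, where 25.9% of all tested genes had no overlap between these groups. Mefv was below the filter.

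Of 12 partners and substrates of Trim proteins, none passed an adjusted p in any comparison. At an unadjusted p under 0.05, Snap25 was higher and Dlgap1 lower in MS than in Control, Setdb1 was higher in MS+EA than in MS, and Kif21b was lower in MS+EA than in Control. These were 2, 1 and 1 of 12, where 10.6%, 12.4% and 22.5% of all tested genes passed this level. Kif21b, the kinesin that binds Trim3, had a log2 fold change of -0.32 (SE 0.09, adjusted p = 0.0624). Dlgap1, a scaffold protein that Trim3 marks for degradation, had -0.24 in MS against Control (SE 0.10, adjusted p = 0.423), while Nefl, Smad4, Dcc and Mavs had between -0.10 and 0.03 in MS+EA against Control.

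Of 9 E1 and E2 enzymes that supply ubiquitin, none passed an adjusted p. Against Control, MS+EA rats had at an unadjusted p under 0.05 higher Ube2d2, Ube2d3 and Ube2v2 and lower Uba1 and Ube2v1, 5 of 9 where 22.5% of all tested genes passed this level. Ube2d3, an E2 used by many RING ligases, had 133, 146 and 141 CPM in Control, 148, 179 and 184 in MS and 157, 205 and 180 in MS+EA rats. Control rats were lowest, and the log2 fold change of MS+EA was 0.36 (SE 0.10, adjusted p = 0.0562). Ube2v1, the partner of Ube2n in building ubiquitin chains, had -0.36 (SE 0.11, adjusted p = 0.0665), and Ube2n itself had -0.02.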

How the data were processed

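The authors filtered reads by FastQC quality, used HISAT2 2.0.4 for mapping to Rnor_6.0 and deposited whole-number counts per gene without normalization; the counting program and strand setting are not given in the sources used here. Fold changes, p-values and CPM were computed from these counts with edgeR 4.0.16 in R 4.3.3: TMM scaling, filterByExpr (minimum count 10), and a quasi-likelihood F test with a mean per group over all 9 rats, adjusted by Benjamini-Hochberg over the 16837 genes tested. A call needed an adjusted p below 0.05 with a change of over 1.5-fold. A gene said to pass the test, or the limit named alone, passed the adjusted p below 0.05 whatever its fold change. A count of 3 was taken as the detection floor. EBSeq, the study's tool, was not used here. The biological coefficient of variation was 12.7%. DESeq2 1.42.0, RLE size factors, total counts, 2 other count filters, a fit of the 6 rats compared and the omission of each rat were alternatives.

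Members and gene lists were chosen with earlier results of these data known. Named with values were members past an adjusted p of 0.05, the smallest p-values per comparison, those with MS rats apart from both groups, the highest and lowest by reads, the most and least variable, and class members; others were named after their values were seen. Symbols were matched to RefSeq GRCr8 for 38 of 40 members, not Trim30 and Trim47l, for promoters, neighbours and overlaps: 17 members overlap another gene, 8 of them a tested one. Tables and plots used Python 3.11.15, pandas 2.3.3, numpy 2.4.6 and matplotlib 3.10.9.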

Additional observations from a re-analysis of the deposited data

How the results depend on the processing

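The count of members past both limits stayed at 0, 0 and 1 (Trim59) in MS against Control, MS+EA against MS and MS+EA against Control under every alternative run, except that without the fold limit it was 4 in the last. In MS+EA against MS, DESeq2 gave no adjusted p for Trim59 or Trim47l, so that neither could pass there. Over all genes the count of calls was 4, 3 and 230 in the reported test, 69, 13 and 286 with DESeq2 and its own filter, and 207, 72 and 469 in edgeR with a filter of at least 1 count, and tool and filter were not set apart. With total counts in place of TMM, the median log2 fold change of the members was 0.0066 in MS+EA against MS and 0.0124 in MS+EA against Control, and 5 members did not overlap between MS+EA and MS. Leaving out each rat in turn, members at an unadjusted p under 0.05 numbered 2 to 8 in MS against Control (2 without A6, 3 without B4 or B6) and 3 to 8 in MS+EA against MS (8 without C3). The members without overlap numbered 9 to 13 in MS+EA against MS (13 without B6, C3 or C16) and 15 to 20 in MS+EA against Control (20 without C3), where fewer rats overlap less by construction. The median was 0.0033 to 0.0301 in MS against Control, -0.0677 to 0.0101 in MS+EA against MS and -0.0526 to -0.0054 in MS+EA against Control. Over the 21 pairs of a named gene and a comparison, 275 of 313 alternative values kept their direction and side of the limit, 27 fell short of it, 11 passed it and 0 turned. The 275 include the DESeq2 values of Trim59 and Trim47l in MS+EA against MS, which kept their direction but had no adjusted p. Trim23 and Trim33 passed an adjusted p of 0.05 between MS+EA and Control with total counts, with either other filter, with DESeq2 and without C3, and Trim21 with DESeq2 alone. The cause was not tested. Levels per transcript length were not run, since no lengths were used here. No paired analysis was possible because each group holds other animals, and the sources used here do not say that a shared number marks a common litter, batch or day.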

Other observations

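Trim58, a ligase of maturing red blood cells that lay below the minimum of reads, had 11 and 5 reads in Control rats A1 and A2, 6 in MS+EA rat C10 and at most 2 in the other 6 rats. Trim71, the NHL-repeat ligase of stem cells, had 0 to 7 reads per rat. Trim63, a muscle ligase induced by glucocorticoids, had 10, 4 and 4 reads in Control, 9, 8 and 3 in MS and 8, 2 and 9 in MS+EA rats, with all groups overlapping. Trim69 had 3, 7 and 8 reads in Control, 6, 11 and 5 in MS and 5, 1 and 1 in MS+EA rats. These counts were too few for a fold change.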
